A study of Mus musculus with 4 samples.

Results

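Layer 4/5 Rorb excitatory nuclei were 1085 of the 35694 nuclei of the series (3.04%) and 1085 of the 10968 nuclei with a UMI of the excitatory marker Slc17a7 and none of the inhibitory markers Gad1 and Gad2 (9.89%). A UMI (unique molecular identifier) stands for 1 captured RNA molecule. A nucleus was a member if it held at least 1 Slc17a7 UMI, no Gad1 or Gad2 UMI, at least 5 UMIs of Rorb, at least 2 UMIs over Kcnh5, Cpne9 and Col8a1, no UMI of Deptor and at most 2 of Foxp2. The members were therefore selected on measured values, and the levels of these genes describe the selection. The nuclei were isolated from the right cortical hemisphere of male mice on a C57Bl/6J background at postnatal day 100 and profiled one by one. The CrT-KO animals (CrT-/y) were hemizygous for a whole-body deletion of exons 5 to 7 of Slc6a8, the X-linked gene of the creatine transporter, and the control animals (CrT+/y) were their wild-type littermates. Each genotype had 2 libraries, and each library held the nuclei of 1 animal. The cortex was dissected whole and nuclei were sorted by flow cytometry, so neither the layer nor the cortical area of a nucleus was recorded.

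Rorb encodes a nuclear receptor that marks the granular layer of the neocortex, where thalamic axons end, and part of the intratelencephalic neurons just beneath it. These glutamatergic cells send axons within the cortex and differ from the deeper neurons that project to the brainstem or thalamus, which carry Fezf2, Bcl11b or Foxp2. Creatine and phosphocreatine buffer the ATP supply of neurons, and loss of the transporter depletes the brain of creatine.

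The 4 libraries contributed 282 and 278 Rorb nuclei from controls and 251 and 274 from CrT-KO. Their summed depth was 2879919 and 2589440 UMIs in controls versus 2576787 and 2303048 UMIs in CrT-KO. The median nucleus held 9289 and 8588.5 UMIs in controls versus 9197 and 7680 in CrT-KO, so the second CrT-KO library was the shallowest. Of all barcodes, 96 occurred in more than 1 library, 9 of these belonged to a Rorb nucleus, and 0 was a Rorb nucleus in more than 1 library. Scrublet, a caller of doublets, marked 37 Rorb nuclei (3.41%), which were kept here and left out as an alternative.

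Checked against its markers, the population carried those of its label, of which Prr16 alone was outside the rule. All levels below are CPM, the UMIs of a gene per 1000000 UMIs of the population in that library. Rorb was at 1260 and 1190 CPM in the controls and at 1040 and 1200 CPM in CrT-KO, against 124 to 158 CPM in the other 9883 excitatory nuclei. Kcnh5, a voltage-gated potassium channel, was at 742, 729, 722 and 589 CPM in the same order, against 181 to 220 CPM. Cpne9, a calcium-dependent phospholipid-binding protein, was at 116, 125, 125 and 119 CPM, against 39.5 to 46.7 CPM. Col8a1, a short-chain collagen, was at 45.5, 47.5, 77.6 and 62.5 CPM, against 12.6 to 17.5 CPM. Each of these genes was part of the rule, so their height is the selection itself. Prr16, a marker that the rule did not use, was at 1250, 1250, 1450 and 1280 CPM in the Rorb nuclei and at 377 to 456 CPM in the others. It was detected in 95.3% to 97.2% of the Rorb nuclei of a library, and no Rorb library overlapped an other-excitatory library.

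Markers of other cells were measured as sums over fixed lists, and some lists were higher here than in the other excitatory nuclei. The 8 layer 2/3 markers summed to 679 to 714 CPM, against 516 to 581 CPM. Of these, Cux2, Enpp2 and Lamp5 were higher in all 4 libraries and Otof, Adamts2 and Wfs1 lower. The 4 subcortical glutamatergic markers summed to 30 to 39.4 CPM, against 20.3 to 23.2 CPM. Most of this was Slc17a6 (means of 21 against 8.87 CPM), while Tcf7l2 and Lef1 had lower means. The summed level of 8 layer 5 extratelencephalic markers was 76 to 90.3 CPM over the 4 libraries, against 206 to 236 CPM in the other excitatory nuclei, and none of the 8 was at 0 in all Rorb libraries. Fezf2, which defines those neurons, was at 0.347 to 3.88 CPM against 4.2 to 5.72 CPM. Slco2a1, a prostaglandin transporter of the same list, went the other way, at 7.99 to 14.7 CPM against 5.1 to 6.02 CPM, and Pou3f1 overlapped (2.43 to 3.09 against 1.43 to 3.39 CPM). Of 5 near-projecting markers the sum was 94.8 and 82.3 CPM in controls versus 158 and 188 CPM in CrT-KO, nearly all of it Tshz2, while Slc17a8, Trhr and Sla2 each stayed at or below 1.74 CPM. Of 5 corticothalamic markers Hs3st4 had the highest level (843, 935, 1100 and 1160 CPM), below the 1300 to 1380 CPM of the other excitatory nuclei. Tle4 was at a mean of 54 against 141 CPM, Syt6 had at most 3.47 CPM, and Foxp2 was capped by the rule. Of 9 oligodendrocyte markers the sum was 131 to 160 CPM, against 603 to 893 CPM over all nuclei of a library. Mbp, the myelin basic protein gene, gave a UMI in 31.4% to 40.2% of the Rorb nuclei and in 100% of 353 oligodendrocyte nuclei. The part of free RNA in these levels was not tested. Of 8 astrocyte markers the sum was 700 to 792 CPM with Gfap at 0, against 554 to 598 CPM in the other excitatory nuclei, of 8 microglial markers 40 to 57.3 CPM with none at 0, and of 5 endothelial and pericyte markers 2.33 to 3.48 CPM with Cldn5 at 0. The 9 striatal projection neuron markers summed to 1730 to 2530 CPM in the Rorb nuclei and to 1480 to 1960 CPM in the other excitatory nuclei, but nearly all of this was Pde10a, a phosphodiesterase, at a mean of 2110 against 1700 CPM. The dopamine receptor gene Drd1 (0.595 against 2.31 CPM, means) and Rgs9 (8.07 against 21.4 CPM) were lower in the Rorb nuclei. The 12 inhibitory markers in the matrices summed to 183 and 275 CPM in controls and to 256 and 330 CPM in CrT-KO, with Gad1 and Gad2 at 0 by the rule.

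Beyond the genes of the rule, the profile of the Rorb nuclei was led by Pld5, Whrn, Rcan2, Hgf and Ankfn1. Among 3045 genes with at least 50 CPM in either population, the highest ratio to the other excitatory nuclei was that of Pld5, a member of the phospholipase D family, at 255, 330, 351 and 246 CPM against 50.1 to 66.2 CPM. Whrn, a PDZ scaffold protein, followed at 64.6, 65.3, 63.3 and 71.6 CPM against 15.9 to 17 CPM. Rcan2, a regulator of calcineurin, was at 664, 680, 712 and 620 CPM against 162 to 188 CPM. Hgf, a secreted growth factor, was at 44.4, 70.3, 69.9 and 72.1 CPM against 18.3 to 18.9 CPM. Grik1, a kainate receptor subunit, was at 310, 371, 381 and 399 CPM against 109 to 124 CPM. Ankfn1, Prr16, Myo16, Thsd7a and the zinc finger factor Ovol2 completed the 10 leading genes, between 2.96 and 3.32 times the level of the other excitatory nuclei. All 10 were higher in each of the 4 libraries. This is a description of the selected nuclei and carries no test.

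At the other end, 5 genes had the lowest levels relative to the other excitatory nuclei. Thsd7b, a thrombospondin-domain gene, was at 27.1, 22.8, 31.8 and 34.7 CPM against 275 to 300.0 CPM, or 9.93 times lower. Sdk2, a homophilic synaptic adhesion molecule, was at 17.7, 26.3, 44.2 and 29.1 CPM against 241 to 267 CPM. Nrp1, the neuropilin-1 receptor for class 3 semaphorins, was at 14.2, 22.4, 19.4 and 24.3 CPM against 133 to 160 CPM. Rai14 (7.54 times lower) and the G protein subunit Gng12 (7.28 times lower) completed the list.

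**Figure D1:**
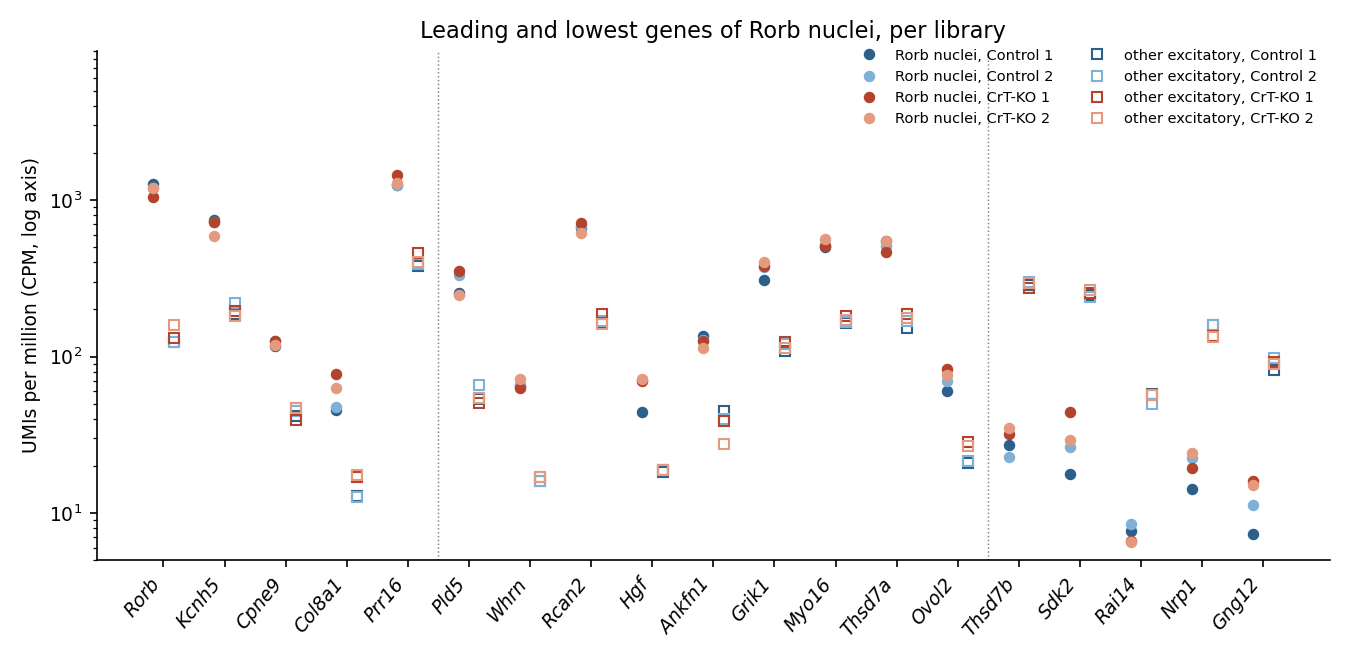
Level of each gene on a log axis, in CPM, with 1 filled circle per library for the Rorb nuclei and 1 open square per library for the other excitatory nuclei. The marker genes stand on the left, the other leading genes in the middle and the lowest genes on the right. Prr16 lies between 1250 and 1450 CPM in Rorb nuclei and between 377 and 456 CPM in the others, and Thsd7b shows the opposite order.

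Marker genes gave a UMI in differing shares of the Rorb nuclei. Such shares depend on the level of a gene and on depth, and whether a low share reflects differences between nuclei was not tested. Of 15 genes known from layer 4 and layer 5 intratelencephalic neurons, Cux1, a homeobox transcription factor of upper layers, gave a UMI in 87.2% to 92% of the nuclei of a library. Whrn gave a UMI in 38.7% and 41.4% of control nuclei versus 35.1% and 35.4% of CrT-KO nuclei. Rspo1, a secreted Wnt agonist that marks layer 4, did so in 18.8% and 22.3% of control nuclei versus 18.7% and 16.8% of CrT-KO nuclei. In the oligodendrocyte nuclei 1.98% had a Whrn UMI and 0 of 353 a Rspo1 UMI, which allows a share of up to 0.85%. Their median depth was 2453 UMIs against 8634 UMIs in Rorb nuclei. Of the same 15 genes, Scnn1a (1.06% to 2.88%), Tmem215 (1.44% to 3.9%) and Endou (0.73% to 3.55%) were found in few nuclei. Batf3 gave a UMI in 0 of the 1085 nuclei, which allows a share of up to 0.276%, and Etv1 and Hsd11b1, both known from layer 5, were lower than in the other excitatory nuclei (18 against 44.6 CPM and 2.4 against 4.28 CPM, means over the libraries).

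Several genes were concentrated in a subset. Thsd7a reached 5 or more UMIs in 27.4% to 35.6% of the nuclei of a library and at least 1 UMI in 55.8% to 68.3%, against 42.8% of the oligodendrocyte nuclei with at least 1. In the oligodendrocyte nuclei Thsd7a was at a mean of 410 CPM, against 518 CPM in Rorb nuclei, so that share is no background rate. Pld5 reached 5 or more UMIs in 17.5% to 31.1% of nuclei, and Il1rapl2, a synaptic interleukin-1 receptor family member, in 12.6% to 18.8%, with up to 98 UMIs in a nucleus. Il1rapl2 was nevertheless lower in every Rorb library than in the other excitatory nuclei (353 to 430 against 640 to 692 CPM). In the Deptor nuclei described below its mean was 3130 CPM. Oligodendrocyte nuclei had a Pld5 UMI in 4.25% and an Il1rapl2 UMI in 18.4%. After each nucleus was thinned to 5000 UMIs, which kept 1033 nuclei and left out 7 and 9 control and 4 and 32 CrT-KO nuclei, the share with a Whrn UMI was 29.8% and 28.6% in controls versus 26.3% and 27.3% in CrT-KO. The share with a Thsd7a UMI was then 57.5% and 61% in controls versus 55.5% and 51.7% in CrT-KO. For both genes the control libraries lay above the CrT-KO libraries, and the exact permutation test gave p = 0.333, the smallest that 2 libraries against 2 allow. The thinned shares with a Rspo1 UMI overlapped between genotypes (10.2% and 14.9% against 12.6% and 10.7%, exact permutation p = 1).

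The threshold of 5 Rorb UMIs did not fall in a gap. There were 147 nuclei that met the rest of the rule with 4 Rorb UMIs and 137 nuclei with 5. Just outside, Prr16 was at 1230 CPM and Kcnh5 at 650 CPM, and just inside they were at 1140 and 578 CPM. The median depth was 8226 UMIs outside and 8445 UMIs inside.

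The share of Rorb nuclei did not separate the genotypes. They made up 11.3% and 9.82% of the excitatory nuclei in controls (10.6% ± 1.06, SD, n = 2) and 8.55% and 10.1% in CrT-KO (9.33% ± 1.09, SD, n = 2). The second CrT-KO library lay between the controls, and the difference of -1.24 percentage points was within the spread of the libraries (two-sided exact permutation test, p = 0.667). Of all nuclei they made up 3.4% and 2.99% in controls versus 2.71% and 3.1% in CrT-KO (exact permutation p = 0.667). With at least 8 Rorb UMIs the shares were 8.51% and 6.68% in controls versus 5.39% and 6.27% in CrT-KO, and with the rule applied after thinning they were 7.75% and 7.51% against 5.84% and 6.66%. In both of these settings the control libraries lay above the CrT-KO libraries, with the smallest p the design allows (exact permutation p = 0.333).

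**Figure D2:**
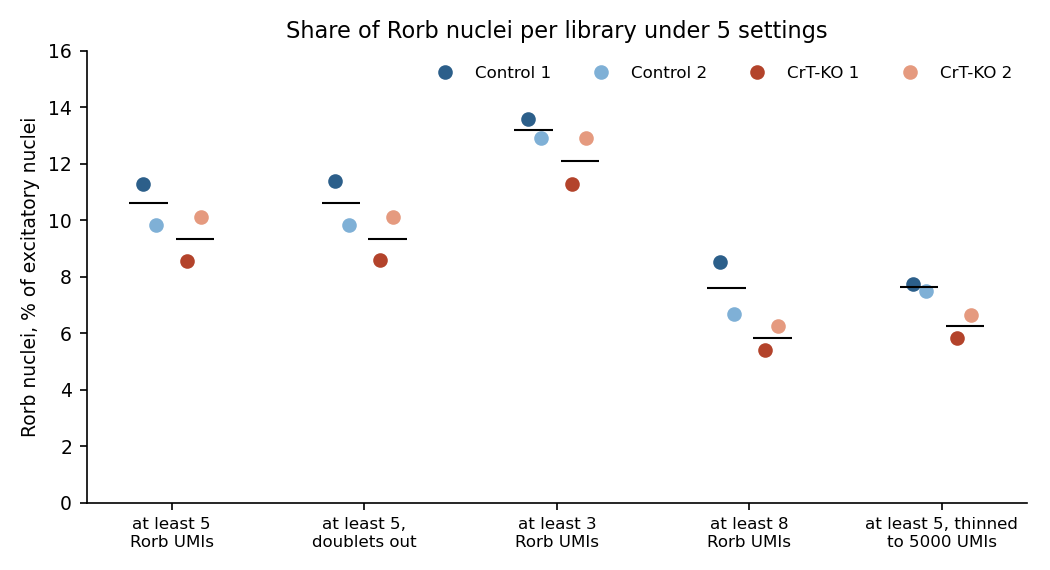
Rorb nuclei as a percentage of excitatory nuclei in each library (circles), with the mean of each genotype as a line, for the rule with at least 5 Rorb UMIs, without doublets, with at least 3 or 8 Rorb UMIs and after thinning to 5000 UMIs. Under the main rule the CrT-KO libraries (8.55% and 10.1%) overlap the controls (11.3% and 9.82%), and after thinning they lie below them.

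The targeted gene was low in these nuclei. Slc6a8 (ENSMUSG00000019558, chromosome X, 73673150 to 73682502, build GRCm38) had 20 and 10 UMIs in control versus 5 and 5 in CrT-KO, or 6.94 and 3.86 CPM against 1.94 and 2.17 CPM. Both CrT-KO libraries were below both controls, and the control mean was 2.63 times higher. The gene failed the filter on low counts. Without that filter its log2 fold change of CrT-KO over control (log2FC) was -1.36 (SE 0.52, adjusted p = 0.475 in edgeR), and the exact permutation test gave p = 0.333. In the other excitatory nuclei, with 151 and 140 UMIs against 42 and 32, it fell by 2.04 on the log2 scale (SE 0.21, adjusted p = 0.00335 in edgeR). A difference in Slc6a8 was thus not detectable by this test in the Rorb nuclei at their depth. The counts do not tell where in the gene a UMI lies, so they do not check the deletion of exons 5 to 7 itself.

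Of the creatine genes, the kinases Ckb, Ckmt1 and Ckmt2 alone had enough UMIs to be tested. Ckb, the cytosolic brain creatine kinase, had 24 and 25.5 CPM in controls versus 19.8 and 15.2 CPM in CrT-KO, with a log2FC of -0.45 (SE 0.22, adjusted p = 0.784 in edgeR). Ckmt1, a mitochondrial creatine kinase, had 10.8 and 13.5 CPM against 9.31 and 8.68 CPM (log2FC -0.38 with SE 0.30, adjusted p = 0.888 in edgeR). Ckmt2, the other mitochondrial form, had 29 and 15 UMIs against 10 and 10 (log2FC -0.92 with SE 0.42, adjusted p = 0.734 in edgeR). All 3 estimates were negative and none passed the test. Gatm and Gamt, the enzymes of creatine synthesis, gave 8 to 10 UMIs and at most 1 UMI per library. Ckm, a further creatine kinase, also gave at most 1 UMI per library.

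Between genotypes, 7 of 9396 tested genes passed an edgeR quasi-likelihood test on the UMIs summed per library at an adjusted p under 0.1 (0.0745%). Of these, 2 rose (0.0213%), namely Tshz2 and Abi3bp, and 5 fell (0.0532%), namely Arhgap26, Col25a1, Oprm1, Fgf1 and Calb1. At an unadjusted p under 0.05 there were 610 genes (6.49%), 315 of them higher and 295 lower, and the median log2FC of all tested genes was -0.002. The libraries of the genotypes did not overlap for 3349 genes (35.6%), so a lack of overlap alone says little here. DESeq2 called 2 genes, Tshz2 and Col25a1. With at least 8 Rorb UMIs in place of 5, Abi3bp, Col25a1, Oprm1 and Calb1 were not called (log2FC 0.87, -0.69, -0.65 and -0.94, edgeR adjusted p = 0.531, 0.1, 0.226 and 0.239, the value of Col25a1 lying just over the threshold). In the nuclei that met the rule after thinning, Tshz2, Abi3bp, Oprm1 and Fgf1 were not called (log2FC 0.57, 1.24, -0.52 and -0.71, edgeR adjusted p = 0.735, 0.417, 0.68 and 0.783). The estimate for Abi3bp was thus as large as with all nuclei, with an SE of 0.40 in place of 0.23, while that for Calb1 was -1.97 and still called (edgeR adjusted p = 0.0665).

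Tshz2, a zinc finger transcription factor that marks near-projecting neurons of deep layers, rose most clearly. It gave 239 and 191 UMIs in controls versus 366 and 388 UMIs in CrT-KO, or 83 and 73.8 CPM against 142 and 168 CPM (ENSMUSG00000047907, chromosome 2, 169633013 to 170071816). The log2FC was 1.02 (SE 0.13, adjusted p = 0.00294 in edgeR). Without each library in turn it stayed between 0.89 and 1.14 and past the threshold. It was not called when nuclei with 3 or more UMIs over Lypd1, Vwc2l, Slc17a8, Trhr and Sla2 were left out (log2FC 0.67, edgeR adjusted p = 0.131), nor in the 491 nuclei that met the rule after thinning, where the estimate was 0.57. Lypd1, another near-projecting marker, had 9.38 and 7.72 CPM against 15.9 and 16.5 CPM and was not called, and its part in the Tshz2 result was tested only by leaving out those nuclei.

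Abi3bp, which encodes an extracellular matrix protein, gave 36 and 62 UMIs in controls versus 112 and 90 UMIs in CrT-KO, or 12.5 and 23.9 CPM against 43.5 and 39.1 CPM (ENSMUSG00000035258, chromosome 16, 56477878 to 56690135). Its log2FC was 1.24 (SE 0.23, adjusted p = 0.0829 in edgeR). It was detected in 9.22% and 8.99% of control nuclei versus 26.7% and 19.7% of CrT-KO nuclei, with the CrT-KO libraries above the controls. In the second control library 19 of the 62 UMIs came from 1 nucleus. Without the first control library the log2FC was 0.82 and was no longer called (edgeR adjusted p = 0.53).

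Among the genes that fell, Arhgap26, a GTPase-activating protein, had the highest counts. The annotation holds 2 records of this name that overlap on the same strand, and one of them was called. That record, ENSMUSG00000118193 (chromosome 18, 38676718 to 39110534, plus strand), gave 600 and 575 UMIs in controls versus 173 and 267 UMIs in CrT-KO, or 208 and 222 CPM against 67.1 and 116 CPM. The log2FC was -1.20 (SE 0.17, adjusted p = 0.00567 in edgeR), and DESeq2 did not call it (log2FC -1.19, DESeq2 adjusted p = 1). The other record, ENSMUSG00000036452 (38993145 to 39376284), had 279 and 246 CPM against 231 and 261 CPM (log2FC -0.06 with SE 0.11, adjusted p = 0.977 in edgeR), and its libraries overlapped. In what follows Arhgap26 stands for the called record. Fgf1 (ENSMUSG00000036585), a fibroblast growth factor, lies within the called record on the minus strand (38838673 to 38929472). It gave 146 and 163 UMIs in controls versus 51 and 75 UMIs in CrT-KO, or 50.7 and 62.9 CPM against 19.8 and 32.6 CPM, with a log2FC of -1.09 (SE 0.21, adjusted p = 0.0829 in edgeR). Fgf1 was not called without the second control library (-0.93, edgeR adjusted p = 0.171) or without the first CrT-KO library (-0.76, edgeR adjusted p = 0.23). Fgf1 and Arhgap26 were counted apart, each with UMIs of its own. How the counting treated the strand is not given in the sources used here, and whether the falls of these overlapping genes share reads was not tested. For both genes the first CrT-KO library was the lower one. The same library stood apart for Eif2s3y, a Y-linked gene, at 29.5 CPM against 66 to 69.1 CPM in the others, and its part in these results was not tested beyond leaving it out.

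Col25a1, a membrane-associated collagen, gave 403 and 362 UMIs in controls versus 210 and 176 UMIs in CrT-KO, or 140 and 140 CPM against 81.5 and 76.4 CPM (ENSMUSG00000058897, chromosome 3, 130131501 to 130599877). The replicates were close, and the log2FC was -0.79 (SE 0.12, adjusted p = 0.012 in edgeR). The share of nuclei with a Col25a1 UMI was 47.9% and 45.3% in controls versus 30.7% and 26.6% in CrT-KO. Leaving out the first control library left the log2FC at -0.79 and moved the adjusted p to 0.109 (edgeR).

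Oprm1, the mu opioid receptor, gave 271 and 253 UMIs in controls versus 140 and 135 UMIs in CrT-KO, or 94.1 and 97.7 CPM against 54.3 and 58.6 CPM (ENSMUSG00000000766, chromosome 10, 6758506 to 7038198). Its log2FC was -0.73 (SE 0.13, adjusted p = 0.0829 in edgeR). A UMI was found in 51.4% and 55.4% of control nuclei versus 34.7% and 34.7% of CrT-KO nuclei. The call was lost without the first control library (-0.76, edgeR adjusted p = 0.202), without the second control library (-0.70, edgeR adjusted p = 0.167) and without the first CrT-KO library (-0.67, edgeR adjusted p = 0.128). Ipcef1 and Gm10945 overlap it on the other strand.

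Calb1, the calcium buffer calbindin, which is known from upper-layer neurons, gave 100 and 83 UMIs in controls versus 33 and 39 UMIs in CrT-KO, or 34.7 and 32.1 CPM against 12.8 and 16.9 CPM (ENSMUSG00000028222, chromosome 4, 15881264 to 15908064). Its log2FC was -1.14 (SE 0.22, adjusted p = 0.0829 in edgeR). It was detected in 20.9% and 20.9% of control nuclei versus 11.2% and 10.6% of CrT-KO nuclei. The call was lost without the first control library (-1.08, edgeR adjusted p = 0.343) and without the first CrT-KO library (-0.94, edgeR adjusted p = 0.222). Lamp5, another gene of the 8 layer 2/3 markers, had 35.8 and 34.4 CPM in controls versus 21 and 20.4 CPM in CrT-KO. Rasgrf2 of the same list went the other way (205 and 166 against 222 and 218 CPM). Cux2 had 271 and 299 CPM against 309 and 248 CPM, and Calb1 was the only call on that list. Of the 6 tested members 4 had a positive log2FC, and the median was 0.071, so the list did not share a direction.

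**Figure D3:**
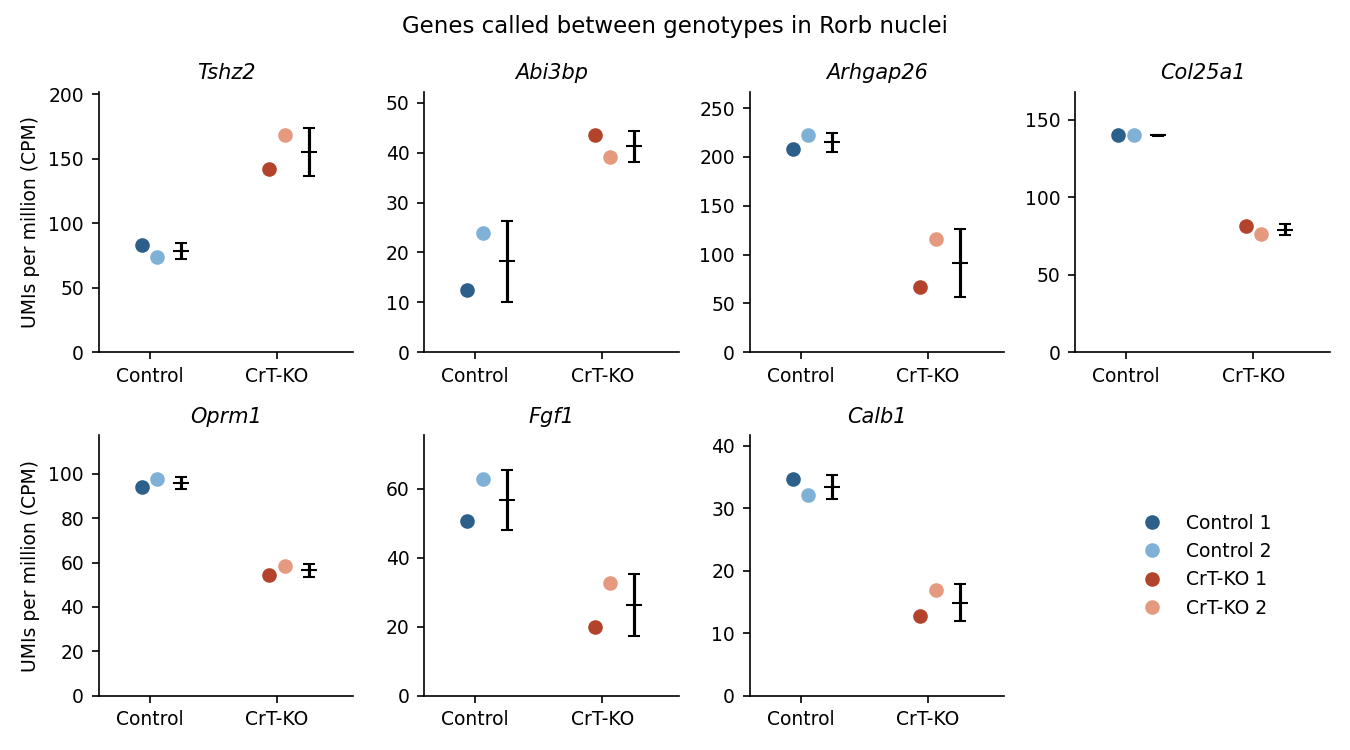
Level of the 7 called genes in Rorb nuclei, in CPM on linear axes from 0, with 1 circle per library and the mean ± SD of each genotype (n = 2) beside them. Both CrT-KO libraries lie above both controls for Tshz2 (142 and 168 against 83 and 73.8 CPM) and Abi3bp, and below them for the other 5 genes.

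The genes with the next smallest p-values did not pass the test. Frmd5, a FERM-domain protein, had 954 and 965 CPM in controls versus 1230 and 1220 CPM in CrT-KO (log2FC 0.39 with SE 0.08, adjusted p = 0.19 in edgeR). Plxdc2, a plexin-domain membrane protein, had 143 and 126 CPM against 88.5 and 87.7 CPM (log2FC -0.57 with SE 0.12, adjusted p = 0.19 in edgeR). Slc9a9, an endosomal sodium-proton exchanger, had 377 and 346 CPM against 476 and 477 CPM (log2FC 0.44 with SE 0.09, adjusted p = 0.208 in edgeR). In each case the libraries of a genotype stood close together.

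The Tshz2 UMIs came from few nuclei. The 61 nuclei with 5 or more Tshz2 UMIs (5.62%) held 966 of the 1184 UMIs (81.6%). They numbered 12 and 11 in controls (4.26% and 3.96% of Rorb nuclei) and 16 and 22 in CrT-KO (6.37% and 8.03%). Both CrT-KO shares were above both control shares (exact permutation p = 0.333, the smallest possible). Such a nucleus held 14.5 and 13.1 Tshz2 UMIs on average in controls and 19.2 and 15.5 in CrT-KO, at a median depth of 11296 and 11883 UMIs against 13953.5 and 9419.5 UMIs. In the remaining nuclei, which hold at most 4 Tshz2 UMIs by this split, Tshz2 was at 23.9 and 19.4 CPM in controls versus 24.6 and 23.3 CPM in CrT-KO, a comparison that the split limits. Scrublet marked 1 of the 61 nuclei as a doublet.

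Those 61 nuclei had a profile of their own. Since they were picked on their values, the following levels are a description with no test. Against the 883 nuclei with no Tshz2 UMI, their leading gene was Rab3b, a vesicle-associated small GTPase, at 155 against 2.45 CPM. Inpp4b, a lipid phosphatase, was at 662 against 32.5 CPM, Reln, the secreted protein reelin, at 143 against 9.21 CPM, and Ntng1, the synaptic adhesion protein netrin-G1, at 2910 against 218 CPM. Bcl11b, a transcription factor of deep-layer projection neurons, was at 209 against 14.1 CPM and gave a UMI in 68.9% against 6.46% of nuclei. The near-projecting markers Lypd1 (61.9 against 7.73 CPM) and Vwc2l (226 against 38.2 CPM) were higher too, while Trhr and Slc17a8 gave no UMI in the 61 nuclei. Both are also low in the other excitatory nuclei (means of 7.34 and 0.8 CPM), so this says little about them. Lower were Pld5 (52.9 against 325 CPM), Cpne9 (29.7 against 131 CPM), Prr16 (550 against 1390 CPM) and Cux2 (99.4 against 302 CPM). Thsd7a and Whrn, both leading genes of the Rorb nuclei, went the other way (1450 against 427 CPM and 81.3 against 61 CPM). Thsd7a gave a UMI in 86.9% of the 61 nuclei against 59.8% of those without Tshz2. Rorb itself was at 872 against 1220 CPM. The genes that lead these nuclei thus included markers of other deep-layer neurons, and Prr16, the marker outside the rule, gave a UMI in 60.7% of them against 98.3% of the nuclei without Tshz2. Without the 61 nuclei 8 genes were called between genotypes, 6 of them among the 7 above.

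**Figure D4:**
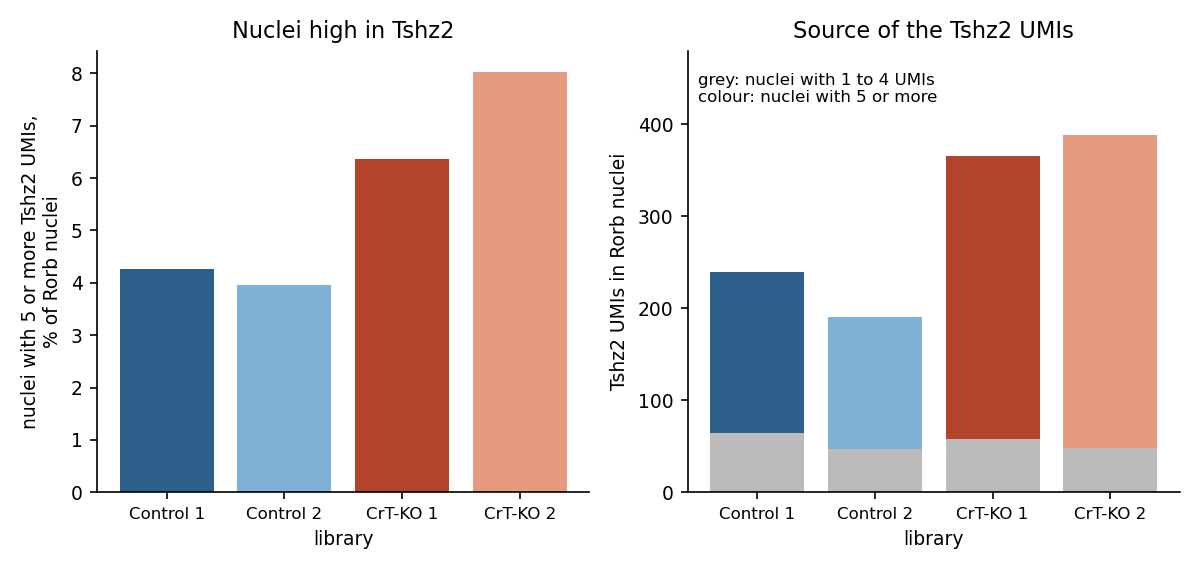
Left, Rorb nuclei with 5 or more Tshz2 UMIs as a percentage of the Rorb nuclei of each library. Right, number of Tshz2 UMIs per library, split into those from nuclei with 1 to 4 UMIs (grey) and with 5 or more (colour), where the grey part is 65 and 47 UMIs in controls versus 58 and 48 in CrT-KO.

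The other excitatory nuclei came from the same 4 animals, so their values stand beside those of the Rorb nuclei and are no separate replicate. In them, 18 of 13459 tested genes were called (0.134%). The log2FCs in Rorb and in other excitatory nuclei were -1.20 and -1.25 for Arhgap26, -1.09 and -1.28 for Fgf1, and -0.79 and -0.58 for Col25a1, and all 3 were called in both. For Abi3bp they were 1.24 and 0.74, for Calb1 -1.14 and -0.37 and for Oprm1 -0.73 and -0.18, and these 3 were not called in the other excitatory nuclei (edgeR adjusted p = 0.224, 0.379 and 0.584). Within those nuclei, Abi3bp was called in the Cux2 nuclei described below (log2FC 2.39, edgeR adjusted p = 0.000107) and Oprm1 in the Deptor nuclei (log2FC -0.59, edgeR adjusted p = 0.0981). The differences of these 3 genes between Rorb and other excitatory nuclei did not pass the edgeR test of population by genotype (adjusted p = 0.927 for Abi3bp, 0.382 for Calb1 and 0.14 for Oprm1).

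The genotype effect differed between Rorb and other excitatory nuclei for 4 of 12840 tested genes (0.0312%). Tshz2 rose by 1.02 in the Rorb nuclei and had a log2FC of 0.14 in the others (294 and 288 CPM against 312 and 307 CPM), a difference of 0.87 (SE 0.11, adjusted p = 9.41e-05 in edgeR). It stayed between 0.67 and 1.00 in all 8 other settings run for this test. It was past the threshold without the filter, without doublets and with at least 3 or 8 Rorb UMIs. Thinning and leaving out nuclei of near-projecting markers were not run for this difference. Under both, Tshz2 was not called in the Rorb nuclei (log2FC 0.57 and 0.67, edgeR adjusted p = 0.735 and 0.131). The Cux2 nuclei, however, had a log2FC of 1.09 (SE 0.29, adjusted p = 0.254 in edgeR), a difference of -0.05 to the Rorb nuclei (adjusted p = 0.995 in edgeR). Pappa2, a secreted metalloproteinase, gave 5 and 5 UMIs in controls versus 23 and 16 UMIs in CrT-KO, a difference to the other excitatory nuclei of 2.58 (SE 0.47, adjusted p = 0.0354 in edgeR). Of those UMIs, 13 of the 23 and 11 of the 16 came from 1 nucleus in each library. Ltbp1, a binding protein of latent TGF-beta, gave 6 and 7 UMIs in controls versus 23 and 21 UMIs in CrT-KO, with a difference of 2.16 (SE 0.42, adjusted p = 0.0528 in edgeR), and 11 and 8 of the CrT-KO UMIs came from 1 nucleus each. These Ltbp1 nuclei also held 19 and 11 Tshz2 UMIs, and the Pappa2 nucleus of the second CrT-KO library held 14, so they were among the 61 nuclei above, whereas that of the first CrT-KO library held 0. Without the first control library the Ltbp1 difference was 1.90 and not called (edgeR adjusted p = 0.111). With at least 8 Rorb UMIs neither was called (edgeR adjusted p = 0.191 for Pappa2 and 0.114 for Ltbp1). The fourth gene was Rorb, which the rule selected on and whose difference is therefore no finding.

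**Figure D5:**
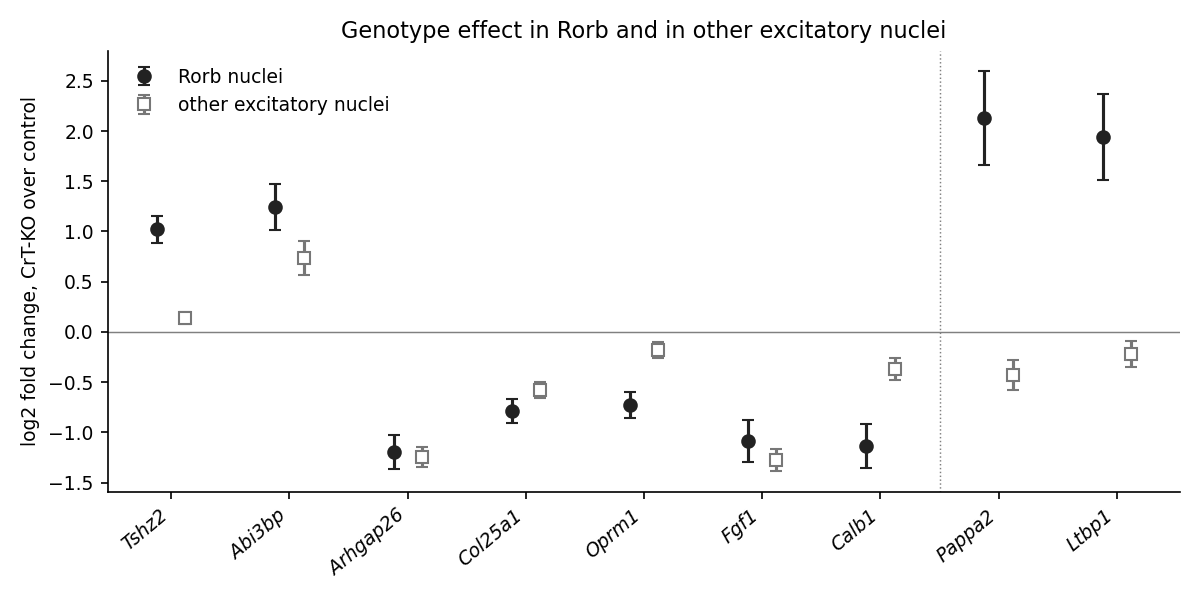
Log2 fold change of CrT-KO over control with its standard error, for the 7 called genes and for Pappa2 and Ltbp1, in Rorb nuclei (circles) and in other excitatory nuclei (squares). Tshz2 stands at 1.02 and 0.14, while the called Arhgap26 record stands at -1.20 and -1.25.

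The gene groups that follow are described by their members at an unadjusted p under 0.05 in edgeR, which 6.49% of all tested genes reached. Apart from the list of earlier calls at the end, none had a called member, which at 0.0745% of all genes called says nothing particular about lists of this size. Among 15 tested ionotropic glutamate receptor genes, 4 had an unadjusted p under 0.05 in edgeR, all with higher values in CrT-KO, and the median log2FC was 0.10. They were Grin1 (424 and 447 against 550 and 470 CPM), Grik1, Grik3 (40.6 and 80.3 against 95.5 and 86.4 CPM) and Grik5 (78.5 and 76.9 against 93.1 and 99.4 CPM), with edgeR adjusted p from 0.436 to 0.731. Grin2a, an abundant NMDA receptor subunit gene, was at 2480 and 2440 CPM in controls versus 2320 and 2600 CPM in CrT-KO. Of 7 metabotropic receptor genes 1 had an unadjusted p under 0.05 (Grm3, log2FC -0.31), and of 12 GABA-A receptor genes likewise 1 (Gabra2, 327 and 312 against 241 and 274 CPM, log2FC -0.27).

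Among 36 potassium channel genes 4 were higher and 3 lower at an unadjusted p under 0.05, against 315 and 295 of the 9396 genes, and their median was -0.06. Kcnc2, a Kv3 channel of fast repolarization, had 538 and 592 CPM in controls versus 350 and 466 CPM in CrT-KO (log2FC -0.43 with SE 0.12, adjusted p = 0.363 in edgeR). Kcnd2, the Kv4.2 channel of the A-type current, had 3170 and 3300 CPM against 3520 and 4100 CPM (log2FC 0.28 with SE 0.09, adjusted p = 0.394 in edgeR). Of 8 sodium channel genes, 2 HCN channel genes and 9 ion pump genes 0 reached an unadjusted p of 0.05 in edgeR, and 1 of 14 calcium channel genes did (Cacnb4, log2FC 0.19).

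Genes of axon guidance and adhesion had unadjusted p-values under 0.05 in both directions, beside the 6.49% of all tested genes. Of 27 axon guidance genes 3 were higher and 7 lower, with a median of -0.02. Sema5a, a transmembrane semaphorin, had 13.9 and 19.7 CPM in controls versus 5.43 and 9.12 CPM in CrT-KO (log2FC -1.17 with SE 0.32, adjusted p = 0.363 in edgeR). Sema3e, a secreted semaphorin, had 16.3 and 16.2 CPM against 23.3 and 33.9 CPM (log2FC 0.84 with SE 0.23, adjusted p = 0.363 in edgeR). Of 13 cadherin genes 3 were higher and 3 lower. Of 28 synaptic organizer genes 4 were higher and 0 lower, among them the receptor phosphatase Ptprd at 21400 and 22000 CPM against 24200 and 24700 CPM (log2FC 0.22 with SE 0.07, adjusted p = 0.406 in edgeR).

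Energy and stress genes are given against the same 6.49%. Of 47 nuclear-encoded respiratory chain genes 1 had an unadjusted p under 0.05 (Cox7b, 17 and 18.2 against 11.6 and 9.55 CPM), and their median was -0.07. Of 15 glycolysis genes 1 did (Pfkp, 177 and 168 against 145 and 138 CPM), with a median of -0.13. Of 11 AMP-sensing kinase genes 1 did (Camkk2). Of 9 mitochondrially encoded genes, 16 ribosomal protein genes and 14 endoplasmic reticulum chaperone genes 0 did, with medians of 0.03, 0.06 and -0.20. Of 13 heat shock chaperone genes 2 did, Hspa8 (18.8 and 19.3 against 13.6 and 7.82 CPM) and Hsph1 (29.9 and 31.7 against 18.6 and 18.7 CPM), with a median of -0.23. A positive log2FC was found in 2 of these 13 genes, 3 of the 14 endoplasmic reticulum chaperone genes, 3 of the 15 glycolysis genes and 2 of the 9 ion pump genes, against 49.4% of all tested genes. It was found in 38.3% of the nuclear-encoded respiratory chain genes and 55.6% of the mitochondrially encoded genes. For ribosomal protein and AMP-sensing kinase genes the share was 56.2% and 63.6%, so these lists did not share a direction.

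Immediate-early genes, which report recent neuronal activity, had negative log2FCs in 10 of 11 tested members, with a median of -0.19. Egr1 had 24.7 and 26.6 CPM in controls versus 12.4 and 14.3 CPM in CrT-KO (log2FC -0.90 with SE 0.23, adjusted p = 0.327 in edgeR). Egr3 had 20.1 and 23.6 CPM against 14.4 and 5.64 CPM (log2FC -1.06 with SE 0.31, adjusted p = 0.368 in edgeR). A positive log2FC was found in 9.09% of this list. Of 14 clock genes 1 was higher and 1 lower at an unadjusted p under 0.05, and of 8 glucocorticoid-responsive genes 1 was higher (Zbtb16). Of 19 vesicle release genes 1 was higher and 1 lower, and 0 was called. Of the 4 Y-linked genes, all expressed in these males, 0 was called. Ddx3y, Uty and Kdm5d lay at 26.4 to 36.5, 128 to 147 and 26.8 to 39.9 CPM, and Eif2s3y was low in the first CrT-KO library, in the other excitatory nuclei as well (31.1 against 70.5 to 87.2 CPM).

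A list of 6 genes that differed in excitatory neurons of these same libraries in an earlier analysis is not independent evidence. Of its members Fgf1 was called here. Abca4 (25 and 18 UMIs against 42 and 35), Skap1 (25 and 19 against 37 and 35), Potegl (17 and 9 against 26 and 20) and Tnnc1 (15 and 11 against 4 and 5) had log2FCs of 1.04, 0.91, 1.02 and -1.30 and did not pass the test (edgeR adjusted p = 0.363, 0.436, 0.597 and 0.689).

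Against 813 Cux2 nuclei of the same libraries, chosen by the upper-layer gene Cux2, the genotype effect differed for 6 of 9989 genes (0.0601%), none of them called in the Rorb nuclei and 3 called in the Cux2 nuclei. In the Cux2 nuclei taken alone, 24 of 9266 tested genes were called between genotypes. Htr2c, the serotonin 2C receptor, stood at 53.8 and 51.4 CPM in control versus 80.3 and 63.4 CPM in CrT-KO Rorb nuclei. In Cux2 nuclei it stood at 74 and 67.5 CPM in control versus 48 and 34.5 CPM in CrT-KO, a difference of 1.23 between the effects (SE 0.19, adjusted p = 0.0131 in edgeR). The values of the Rorb nuclei thus lay higher in CrT-KO and those of the Cux2 nuclei lower. Htr2c was called in neither population taken alone (edgeR adjusted p = 0.392 in Rorb and 0.197 in Cux2 nuclei). Zfp804a, Tafa1, Thsd7b and Brinp3 had differences of 0.89, 0.63, 1.17 and 0.59, and Zmat4 one of -0.64.

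Against 590 Deptor nuclei, chosen by a gene of layer 5 neurons, it differed for 62 of 9695 genes (0.64%), of which 30 were called in the Deptor nuclei and 1, Tshz2, in the Rorb nuclei. In the Deptor nuclei taken alone, 94 of 8324 tested genes were called between genotypes. Thsd7a, a leading gene of the Rorb nuclei, stood in the Rorb nuclei at 546 and 508 CPM in control versus 467 and 551 CPM in CrT-KO. In Deptor nuclei it rose from 224 and 210 CPM to 442 and 382 CPM, a difference of -0.99 between the effects (SE 0.12, adjusted p = 1.45e-05 in edgeR). The Rorb libraries of both genotypes overlapped, whereas the Deptor libraries did not. Tshz2 had a log2FC of 0.04 in Deptor nuclei (difference 0.97, SE 0.16, adjusted p = 0.000531 in edgeR). Grik3 stood at 289 and 311 CPM in control versus 204 and 200 CPM in CrT-KO Deptor nuclei, a difference of 1.19 to the Rorb nuclei (SE 0.18, adjusted p = 0.000177 in edgeR). Synpr, a synaptic vesicle protein, and Dpyd, an enzyme of pyrimidine breakdown, had differences of -1.93 and -1.19.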

How the data were processed

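The deposited matrices held counts of UMIs per gene and nucleus, which the authors made with Cell Ranger 3.1.0 against GRCm38 (mm10), with whole gene bodies counted, from barcodes already called as nuclei. No normalization was applied to them and no cell type annotation was used here. Of 21933 gene identifiers, 99.5% were found in GENCODE vM21, the source of coordinates.

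Members were selected per nucleus on raw UMIs, and doublets were called per library with Scrublet (scanpy 1.11.5) and kept. UMIs were summed per library and population, since nuclei are not replicates. Sums went into the quasi-likelihood model of edgeR 4.0.16 (R 4.3.3) after TMM scaling and its filter on low counts (filterByExpr, minimum 10 and total 15). P-values were adjusted by Benjamini and Hochberg over all tested genes, and an adjusted p under 0.1 was called. Whether an effect differed between populations was read from a population by genotype term, each library being a factor. The Cux2 nuclei held at least 5 Cux2 UMIs, at most 2 of Rorb and none of Deptor, and the Deptor nuclei at least 3 Deptor UMIs. CPM use the summed UMIs of a population as their total. Shares were compared by a two-sided exact permutation test over 6 assignments of 4 libraries, whose smallest p is 0.33. The script of the gene tests was tested on simulated data. All p-values rest on 2 animals per genotype.

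Alternatives were DESeq2 1.42.0, no filter, a replicate block, leaving out each library or the doublets, other Rorb thresholds, thinning to 5000 UMIs and a threshold of 0.05. Leaving out nuclei with Tshz2 or near-projecting markers and thinning the subtype shares were added after the data were seen. The members and gene lists were chosen with earlier results of these data known. Named genes were Slc6a8, the creatine, Y-linked and rule genes, called genes with no overlap between genotypes, the next smallest p-values up to 10 genes, genes called in the interaction, the leading and lowest genes of the profile, and the most abundant members of each list. List members with an unadjusted p under 0.05 and the genes of the Tshz2 nuclei were named after their values were seen. Scripts ran under Python 3.11.15 (scipy 1.17.1). Some measured items are not reported here.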

Additional observations from a re-analysis of the deposited data

Results flagged for a closer look

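In 5 places the effect of genotype differed between Rorb nuclei and another population by a test of the difference itself. Against the other excitatory nuclei these were Tshz2 (log2 difference 0.87), Pappa2 (2.58) and Ltbp1 (2.16), each with the higher effect in Rorb nuclei than in the other excitatory nuclei as a whole. In the Cux2 nuclei the log2FC of Tshz2 was 1.09, a difference of -0.05 to the Rorb nuclei (adjusted p = 0.995 in edgeR). With the nucleus of the highest count left out in each library, the Pappa2 UMIs numbered 4 and 4 in the control libraries and 10 and 5 in the CrT-KO libraries, and the Ltbp1 UMIs 4 and 5 against 12 and 13. Rorb differed too, but it was selected on. Against the Cux2 nuclei 6 genes differed, 5 with a higher and 1 with a lower log2FC in Rorb nuclei. Against the Deptor nuclei 62 genes differed, 26 with a higher and 36 with a lower log2FC in Rorb nuclei.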

How the results depend on the processing

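The number of genes called between genotypes, 7, was 2 with DESeq2, 79 without the filter on low counts, 3 at a threshold of 0.05, 26 with at least 3 Rorb UMIs, 4 with at least 8, 8 without doublets, 10 after thinning, 8 without the Tshz2 nuclei and 6 without nuclei of near-projecting markers, and from 3 to 29 with a library left out (3 without the first control library, 13 without the second, 29 and 24 without the first and second CrT-KO library). The number of genes that differed from the other excitatory nuclei, 4, was 42 without the filter, 24 without doublets, 2 at a threshold of 0.05, 5 with at least 3 Rorb UMIs, 7 with at least 8 and from 22 to 36 with a library left out. A library left alone in its genotype is assumed to vary like the others. The causes were not tested. The replicate numbers do not pair the samples by the labels, and over 9396 genes the deviations of same-numbered libraries correlated at 0.0635. With the replicate number as a block 174 genes were called, the 7 among them. Of the 7 called genes, the next 3 by p-value and the 3 differences to other excitatory nuclei, 0 changed sign in the settings run for them, nor did the share of Rorb nuclei. The share of Rorb nuclei differed by -1.14 to -1.77 percentage points of excitatory nuclei under other thresholds, thinning and without doublets, and by -0.473 to -2.02 with a library left out. Few UMIs limit Slc6a8, Pappa2 and Ltbp1.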
